A study of Mus musculus with 2 samples.

Results

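The 10 genes described here are selected components and target genes of the Wnt and β-catenin pathway. They were measured in mouse embryonic stem cells (mESCs) that lack functional Dicer. They are Ctnnb1, Apc, Axin1, Axin2, Gsk3b, Tcf7, Tcf7l1, Tcf7l2, Sp5 and Lgr5, chosen by name, and each matched 1 of the 43629 Ensembl genes in the count tables. PolyA RNA of 2 Dicer_KO libraries was sequenced, the first (replicate 1) from cells at passage 7 and the second (replicate 2) from cells at passage 4. The labels give both the genotype Dicer knockout, the 129/Ola background and a blastocyst origin, and the study describes 2 lines derived from the E14TG2a line by paired CRISPR/Cas9 cuts, each isolated by sorting single cells and each with its own deletion in Dicer1. The labels do not say which deletion each library carries, so passage, line and library cannot be told apart, and a difference between the libraries has no replicate check. Wild-type libraries were not analysed here, and no value below describes an effect of the loss of Dicer. The study routinely cultured its mESCs in serum with leukemia inhibitory factor.

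In the canonical Wnt pathway, cytoplasmic β-catenin is held at low levels by a destruction complex in which the scaffolds AXIN and APC bring it to the kinases CK1 and GSK3, whose phosphorylation marks it for degradation. Wnt ligands bound to Frizzled receptors and LRP co-receptors inhibit this complex, so that β-catenin accumulates, enters the nucleus and joins TCF/LEF factors on the promoters of target genes such as Axin2, Sp5 and Lgr5. In mESCs, TCF7L1 is known as a repressor of pluripotency genes, and inhibition of GSK3 is used to maintain the pluripotent state. The pathway is controlled largely through the stability of the β-catenin protein, which RNA counts do not measure.

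Sp5, a zinc-finger transcription factor gene and a direct target of β-catenin, carries TCF motifs next to its start site. Its promoter window is shown because Sp5 was, with Lgr5, one of the 2 among the 10 genes that lay furthest apart between the libraries, and that of Axin2, a target gene that lay within 2-fold, is shown for comparison. No window was found for Lgr5. As both windows were chosen by these differences, they cannot show a link between motifs and differences, and none was tested. Both are RefSeq sequences of GRCm38.p6, plus strand, and span the 250 bases before the start site. The capitals mark matches to the TCF motif, for which the spelling CTTTGAA, the spelling CTTTGAT, the spelling CTTTGTA and the spelling CTTTGTT were searched on both strands.
Sp5, chr2:70474673-70474922: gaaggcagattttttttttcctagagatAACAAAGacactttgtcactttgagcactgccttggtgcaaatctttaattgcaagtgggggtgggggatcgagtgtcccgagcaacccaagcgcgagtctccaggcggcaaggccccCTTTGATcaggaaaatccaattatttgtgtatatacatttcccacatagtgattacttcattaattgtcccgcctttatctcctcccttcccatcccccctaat
Axin2, chr11:108920099-108920348: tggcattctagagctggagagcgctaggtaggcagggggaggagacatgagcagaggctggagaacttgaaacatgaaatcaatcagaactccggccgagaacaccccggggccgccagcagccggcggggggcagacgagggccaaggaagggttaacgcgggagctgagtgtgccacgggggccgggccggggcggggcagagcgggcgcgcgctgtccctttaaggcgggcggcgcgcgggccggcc

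The Sp5 window held 2 matches. One is CTTTGAT on the plus strand, whose first base lies at -104 from the start site, and the other is AACAAAG, the reverse complement of CTTTGTT, at -222. Of all 32851 promoter windows, 14.8% held at least 1 match and 1.43% held at least 2. The Axin2 window held none of these spellings and was richer in G and C, at 69.2% against 46% for Sp5 and a median of 52.4% over all windows. RefSeq windows were found for 7 of the 10 genes, and 2 of the 7 held a match. This and the count of other target genes below are of genes, some with several windows, and cannot be set against the shares of windows. The second was a downstream start of Tcf7l2, where CTTTGTT began at -14. Among the 11 other target genes listed for the pathway, 3 of the 6 with a window held a match, namely Lef1, Dkk1 and the Brachyury gene T. For Lef1 it lay in 1 of 4 windows, at a downstream start. The sites of Tcf7l2, Lef1 and Dkk1 are shown so that they can be read beside those of Sp5.
Tcf7l2, chr19:55895296-55895320, plus strand: aaaatatcaggCTTTGTTcttttga
Lef1, chr3:131156136-131156164, plus strand: caacctcagaaTACAAAGtaggattgcat
Dkk1, chr19:30549596-30549624, minus strand: tcctcccaaagCTTTGAAatcccatcccg
Dkk1, chr19:30549577-30549605, minus strand: tcccatcccggCTTTGTTgtcttccctga

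The libraries held 41710122 counts on genes in replicate 1 and 41566184 in replicate 2, and the smallest level that 3 counts can show was 0.0719 CPM (counts scaled to a library of 1e6) in replicate 1 and 0.0722 in replicate 2. Dicer1 had 1343 counts in replicate 1 and 1510 in replicate 2, which does not check the labels, since a count over the whole gene does not show the deleted exons. Markers of pluripotent cells were abundant in both libraries, with a summed level of 9721 CPM in replicate 1 and 6787 CPM in replicate 2 over 10 genes. Of these sums Dppa5a alone held 4601 and 2126 CPM, and 7 of the 10 genes were higher in replicate 1. Markers of other cell types did not move alike. The 7 trophectoderm markers summed to 267 CPM in replicate 1 and 59.7 CPM in replicate 2, of which Krt18, on chromosome 15, held 165 and 22.0. The 6 of them with enough counts to be compared were each more than 2-fold higher in replicate 1, as were 14.2% of all genes compared. The 7 primitive endoderm markers summed to 17.6 and 11.1 CPM. The 6 of fibroblasts summed to 19.6 and 16.5 CPM, with Postn at 0 counts in both libraries. The 6 of mesoderm summed to 4.74 and 10.6 CPM, of which Kdr held 2.07 and 8.84. Of the 4 mesoderm markers compared, 3 were higher in replicate 1. The 6 of neuroectoderm summed to 105 and 187 CPM, of which Otx2 held 57.9 and 132, and 3 of the 4 compared were lower in replicate 1. Genes of chromosome 15 had a median log2 ratio of replicate 1 over replicate 2 of 0.59 over 683 genes. That of all genes elsewhere, pooled over chromosomes, was 0.00. The other chromosomes were not summarised separately, so whether any of them was shifted was not tested. None of the 10 genes lies on chromosome 15, but a shift of their own chromosomes was not tested. In such bulk RNA, fewer cells of a type and less RNA per cell cannot be told apart.

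The 10 genes spanned a wide range of abundance. Levels of different genes were compared per kilobase, as CPM scaled by the TMM method and divided by the length of the merged exons in kilobases (RPKM). Ctnnb1, which encodes β-catenin itself, stood alone at the top. The scaffolds Axin1 and Apc, the kinase Gsk3b and the factors Tcf7 and Tcf7l1 followed at 21.7 RPKM or less, Tcf7l2 and the feedback gene Axin2 were lower still, and Sp5 and Lgr5 were near the limit of detection.

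Ctnnb1 (ENSMUSG00000006932, chr9:120929216-120960507, plus strand) had 39738 counts in replicate 1 and 40487 in replicate 2, which gave 176 and 195 RPKM and a mean of 186 ± 13.6 (SD, n = 2). It ranked 206 of 17651 genes by mean RPKM. Exons of Ulk4 and Mir7090 cover 15.1% of its merged exons, and since the authors left out reads on overlapping regions, its count may be too low. Jup, whose product plakoglobin is the closest relative of β-catenin at cell junctions, reached 57.0 RPKM in replicate 1 and 48.7 RPKM in replicate 2. Ctnnb1 thus made up 75.6% of the summed RPKM of these catenins in replicate 1 and 80.1% in replicate 2. With the length of the longest transcripts its share was 68.8% and 74.1%.

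**Figure D1:**
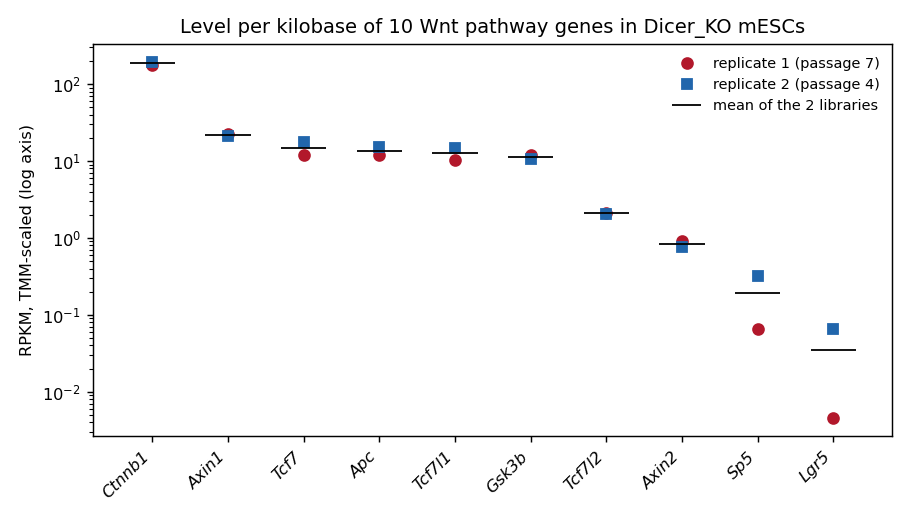
RPKM of each of the 10 genes (log axis) in replicate 1 (circles) and replicate 2 (squares), with the mean of both as a bar. Ctnnb1 lies at 186 RPKM, 5 genes lie between 11.3 and 21.7, and Sp5 and Lgr5 lie below 0.4 in both libraries and are the only genes whose libraries are visibly apart by several fold.

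Within the destruction complex, Axin1 (ENSMUSG00000024182, chr17:26138688-26195811, plus strand) had 3712 counts in replicate 1 and 3234 in replicate 2, or 22.3 and 21.2 RPKM. Apc (ENSMUSG00000005871, chr18:34220924-34322552, plus strand) had 8480 and 9824 counts, which over its long exons amounted to 12.1 and 15.3 RPKM. Gsk3b (ENSMUSG00000022812, chr16:38089001-38246084, plus strand) had 5145 and 4139 counts, or 12.0 and 10.5 RPKM. For each of these genes the libraries lay close together, and the RNA of β-catenin exceeded that of its scaffolds in both libraries, by 7.89-fold and 9.23-fold over Axin1 and by 14.5-fold and 12.8-fold over Apc. With the longest transcripts these folds were 11.2 and 13.1 over Axin1 and 16.6 and 14.6 over Apc.

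Axin2 (ENSMUSG00000000142, chr11:108920349-108950783, plus strand) encodes a scaffold closely related to AXIN1 and is itself induced by β-catenin, so that it is commonly read as a reporter of the pathway. It had 219 counts in replicate 1 and 166 in replicate 2, or 0.916 and 0.755 RPKM, with a mean of 0.836 ± 0.113 (SD, n = 2). Axin1 therefore exceeded Axin2 by 24.4-fold in replicate 1 and 28.0-fold in replicate 2 (19.1-fold and 22.0-fold with the longest transcripts). Axin2 made up 3.94% and 3.45% of the Axin RNA. Exons of Gm11670 cover 3.80% of its merged exons. Other families were uneven too. Gsk3a exceeded Gsk3b by 2.50-fold and 2.72-fold, and Apc2, the paralogue of Apc, made up 0.736% and 0.521% of the APC RNA.

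**Figure D2:**
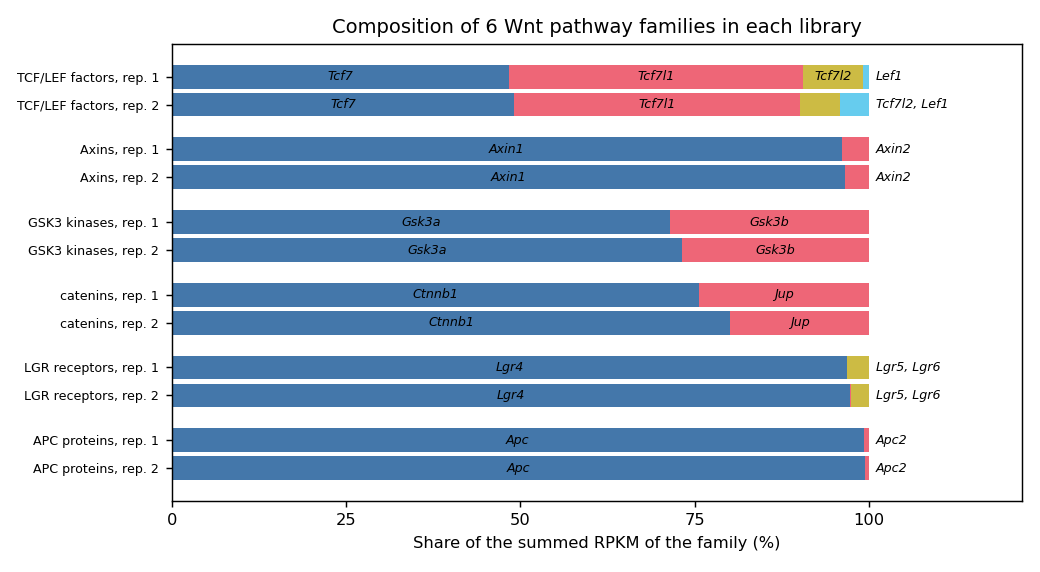
Share of each gene in the summed RPKM of its family (horizontal axis, percent), with 1 bar for each library. The dominant genes are Tcf7 with Tcf7l1, Axin1, Gsk3a, Ctnnb1, Lgr4 and Apc, and the libraries differ visibly in the TCF/LEF bar, where Tcf7l2 holds 8.63% in replicate 1 and 5.72% in replicate 2, and Lef1 holds 0.886% and 4.23%.

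The TCF/LEF factors bind DNA and recruit β-catenin to it. Tcf7 (ENSMUSG00000000782, chr11:52252371-52283014, minus strand) encodes TCF1, which acts mainly with β-catenin as an activator in mESCs, and had 1352 counts in replicate 1 and 1854 in replicate 2, or 11.9 and 17.7 RPKM. Tcf7l1 (ENSMUSG00000055799, chr6:72626378-72789254, minus strand), which encodes the repressor formerly called TCF3, had 1762 and 2315 counts, or 10.3 and 14.8 RPKM. Both were lower in replicate 1, and together they made up most of the family. Tcf7 held 48.3% of the summed RPKM in replicate 1 and 49.1% in replicate 2, and Tcf7l1 held 42.1% and 40.98%. Exons of Gm15401 cover 4.56% of the merged exons of Tcf7l1.

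Tcf7l2 (ENSMUSG00000024985, chr19:55741820-55933654, plus strand), whose product TCF4 is best known from the intestine, had 807 counts in replicate 1 and 723 in replicate 2, or 2.12 and 2.06 RPKM. It held 8.63% and 5.72% of the family. Its merged exons come to 8775 bases while its longest transcript has 3715, and with the latter its share was 15.9% in replicate 1 and 10.5% in replicate 2. Lef1, the remaining family member, had 83 and 535 counts, or 0.217 and 1.53 RPKM, and its share of the family was the one that differed most in fold between the libraries, 0.886% against 4.23%.

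Sp5 (ENSMUSG00000075304, chr2:70474923-70477729, plus strand) had 6 counts in replicate 1 and 27 in replicate 2. These gave 0.138 CPM (95% exact binomial interval 0.0507 to 0.301) and 0.677 CPM (0.446 to 0.984), or 0.0658 and 0.322 RPKM, and these intervals were apart. Lgr5 (ENSMUSG00000020140, chr10:115450311-115587780, minus strand), which encodes a receptor for R-spondins and marks stem cells of the intestine, had 2 counts in replicate 1 and 27 in replicate 2. Its levels were 0.0460 CPM (0.00558 to 0.166), below the smallest level that 3 counts can show, and 0.677 CPM (0.446 to 0.984), and its intervals were likewise apart. Lgr4, the broadly expressed relative of Lgr5, had 5151 and 5974 counts, or 20.2 and 25.4 RPKM, and held 96.8% and 97.2% of the RNA of Lgr4, Lgr5 and Lgr6. In replicate 2, where Lgr5 was higher, Lgr4 still exceeded it by 386-fold per kilobase of merged exons and by 209.6-fold with the longest transcripts. The 2 counts of Lgr5 in replicate 1 are too few for a fold there.

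In the order of mean RPKM, Ctnnb1 (186) was followed by Axin1 (21.7), Tcf7 (14.8), Apc (13.7), Tcf7l1 (12.6), Gsk3b (11.3), Tcf7l2 (2.09), Axin2 (0.836), Sp5 (0.194) and Lgr5 (0.0352). The ranges of the 2 libraries overlapped between neighbours from Tcf7 through Apc and Tcf7l1 to Gsk3b, and between Sp5 and Lgr5. By these ranges, which take no account of the order within each library, these neighbours did not differ beyond the spread of the libraries. Within each library, Sp5 exceeded Lgr5 per kilobase, although replicate 2 held 27 counts of both and the difference there comes from their lengths. Apc exceeded Tcf7l1 within each library, at 12.1 against 10.3 RPKM in replicate 1 and 15.3 against 14.8 RPKM in replicate 2. With the longest transcripts it did so too, at 15.2 against 13.3 and 19.2 against 19.1 RPKM. Tcf7 likewise exceeded Tcf7l1 within each library, by 1.15-fold and 1.20-fold, but with the longest transcripts it was the lower of the pair in both. The other neighbours were apart. The length used matters within the middle group, where the longest transcripts gave 17.2 RPKM for Apc, 16.2 for Tcf7l1, 15.7 for Tcf7 and 13.4 for Gsk3b, and it raised Tcf7l2 to 4.94 RPKM and Lgr5 to 0.0754 RPKM.

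The libraries were then compared gene by gene, to ask which parts of the pathway differed between the 2 Dicer_KO samples. Ratios are given as log2 of the TMM-scaled count in replicate 1 plus a pseudocount of 1, over the same quantity in replicate 2, and only genes averaging 10 counts or more over both libraries were compared. All 10 genes passed this filter, but Sp5 and Lgr5 passed it through replicate 2 alone, and no replicate check exists for any ratio. Of the 10 genes, 8 lay within 2-fold and 2 lay beyond it, Sp5 and Lgr5, both lower in replicate 1. Of all 17788 genes compared, 21.4% lay beyond 2-fold, so that 2 of 10 is close to the background. For the direction alone, 7.14% of all genes were lower in replicate 1 by more than 2-fold, and 17.8% of the 2429 genes with a mean from 10 to under 30 counts, the range in which Sp5 and Lgr5 fall. The median log2 ratio of the 10 genes was -0.24, against 0.02 for all genes. It depends on Sp5 and Lgr5, since with a mean of at least 50 counts, which leaves out both, it was -0.056 over the 8 others. Scaling by total counts moved it to -0.12 and that of all genes to 0.14.

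Lgr5 had the lowest log2 ratio, -3.34, with a 95% interval from counting error alone of -6.99 to -1.88, and Sp5 had -2.12 (-3.86 to -0.99). The intervals are those of the ratio without a pseudocount, which was -3.88 for Lgr5 and -2.29 for Sp5, and neither holds 0. A pseudocount of 5 gave -2.30 for Lgr5 and -1.64 for Sp5. Next came Tcf7 at -0.58 (-0.68 to -0.48) and Tcf7l1 at -0.52 (-0.61 to -0.43), which correspond to levels 1.49-fold and 1.43-fold higher in replicate 2. Apc had -0.33 and Ctnnb1 had -0.15, while Gsk3b had 0.19, Axin1 0.08, Axin2 0.28 and Tcf7l2 0.04. The counting intervals of Axin2 (-0.02 to 0.58) and Tcf7l2 (-0.11 to 0.18) held 0, so that no difference was detectable at this depth. Those of the 8 other genes did not, but that was the case for 73.2% of all genes compared and is thus no feature of the pathway.

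**Figure D3:**
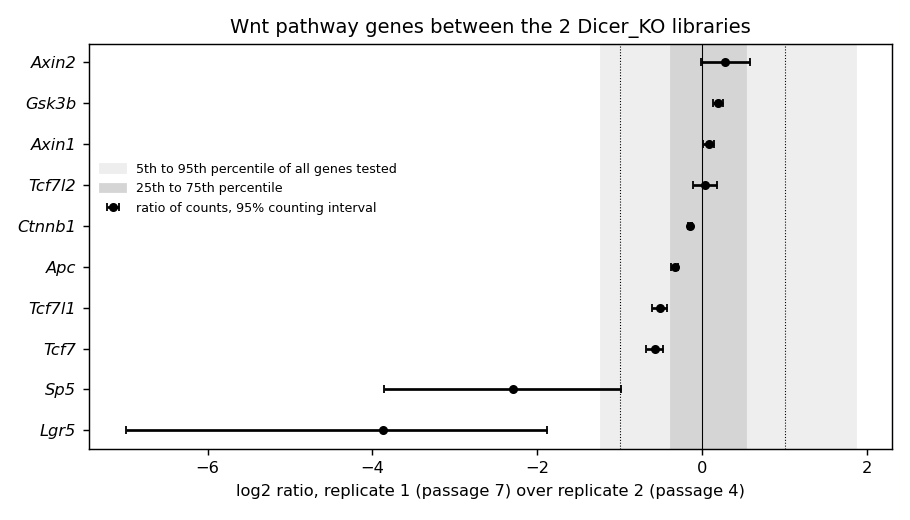
Log2 ratio of replicate 1 over replicate 2 for the 10 genes, as the ratio of TMM-scaled counts without a pseudocount and its 95% counting interval, over bands (from ratios with a pseudocount of 1) that hold the middle 50% and the 5th to 95th percentile (-1.23 to 1.86) of all genes compared. The points of Sp5 and Lgr5 lie left of the outer band with wide intervals, and the 8 others lie within 2-fold (dotted lines). The interval of Sp5 ends at -0.99, inside the outer band and just within 2-fold.

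To place the 10 genes within the whole pathway, 108 genes were grouped by role, with the 10 genes among them. Of the 91 with enough counts, 17 were more than 2-fold higher in replicate 1 and 8 were more than 2-fold lower, or 27.5% together against 21.4% of all genes compared. Their median log2 ratio was 0.04. The roles are described by their counts, and no difference between roles was tested. The background depends on abundance, as 43.5% of all genes with a mean from 10 to under 30 counts and 14.0% of those averaging 100 counts or more lay beyond 2-fold. Nkd2, Wnt7a, Wnt16 and Cdx1 had fewer than 10 counts in replicate 2 and passed the filter through replicate 1 alone, as Sp5 and Lgr5 did through replicate 2.

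Of the 14 genes of the destruction complex and its regulators, 1 lay beyond 2-fold, and 13 of the 14 averaged at least 100 counts, for which the background is the 14.0% given above. The gene beyond 2-fold was Csnk1e, encoding casein kinase 1ε, with 11379 counts in replicate 1 and 3116 in replicate 2, a log2 ratio of 1.75. Csnk1e lies on chromosome 15, whose genes had a median log2 ratio of 0.59, with 30.6% of those compared beyond 2-fold. The part of the chromosome in its ratio was not tested. The most abundant gene of this role was Csnk1a1, the kinase that primes β-catenin for GSK3, at 51.5 and 58.9 RPKM. The tankyrase gene Tnks2, whose product marks AXIN for degradation, followed at 49.4 and 48.5 RPKM, and the ubiquitin ligase subunit Fbxw11 had 25.2 and 25.1 RPKM. The libraries were nearly equal for Tnks2 and Fbxw11.

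Among the 18 catenins and nuclear factors, 3 lay beyond 2-fold (16.7%), close to the 14.0% of all genes of at least 100 counts. Lef1 was lower in replicate 1 with a log2 ratio of -2.80, and the low-abundance genes Tle2 (1.42, from 101 and 34 counts) and Pygo1 (1.27, from 164 and 62 counts) were higher there. The co-repressor genes Tle4 (24.4 and 35.1 RPKM) and Ctbp2 (21.7 and 31.0 RPKM) were the most abundant after the catenins, with log2 ratios of -0.53 and -0.52. Their relatives Tle3, Tle1 and Ctbp1 had log2 ratios of -0.30, -0.06 and 0.38.

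The receptors were led by Fzd7, a Frizzled receptor of undifferentiated mESCs, with 3908 counts in replicate 1 and 4041 in replicate 2, or 19.9 and 22.3 RPKM. Ryk had 16.7 and 13.9 RPKM, Fzd5 10.99 and 15.2 RPKM, and the co-receptor Lrp6 10.7 and 11.2 RPKM. Of the 15 receptors and co-receptors, 2 lay beyond 2-fold (13.3%), against 21.4% of all genes compared and 14.0% of those of at least 100 counts. Fzd6 on chromosome 15 was higher in replicate 1 (2457 against 724 counts, log2 ratio 1.64), and Ror1, a receptor of the non-canonical branch, was lower there (29 against 131 counts, -2.26). In the R-spondin axis, Znrf3, encoding a ligase that removes Frizzled receptors from the surface, had 1190 and 1763 counts and a log2 ratio of -0.69. Its relative Rnf43 lay in the other direction, with 88 and 12 counts and a log2 ratio of 2.66. Rnf43 and Lgr5 were the 2 of 6 genes of this axis compared that lay beyond 2-fold (33.3%), against the 21.4% of all genes.

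Wnt ligand genes other than Wnt7b were low in both libraries. Of 19 ligands, 11 had enough counts to be compared, and Wnt1 and Wnt2 had 0 counts in both libraries. In replicate 1, 7 of the 11 were more than 2-fold higher, and Wnt8a (14 against 46 counts, log2 ratio -1.77) was more than 2-fold lower, with a median log2 ratio of 1.44 over the 11. The 7 include Wnt7a and Wnt16, which passed the filter through replicate 1 alone. The background for higher levels in replicate 1 was 14.2% of all genes compared and 25.7% of those with a mean from 10 to under 30 counts, and most of the 11 ligands averaged 100 counts or fewer. The most abundant ligand was Wnt7b, at 1570 counts in replicate 1 and 332 in replicate 2, or 7.38 and 1.70 RPKM, which lies on chromosome 15. Wnt4 had 221 and 74 counts, Wnt3a 150 and 24, Wnt9a 142 and 58, Wnt11 46 and 15, Wnt7a 28 and 5, and Wnt16 21 and 3. Trophectoderm markers were higher in the same library, as given above, and their part in this was not tested. Of the genes for ligand processing, Porcn, which encodes the enzyme that lipidates Wnts, had 8.36 and 13.2 RPKM, and the carrier gene Wls had 1.23 and 0.980 RPKM.

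**Figure D4:**
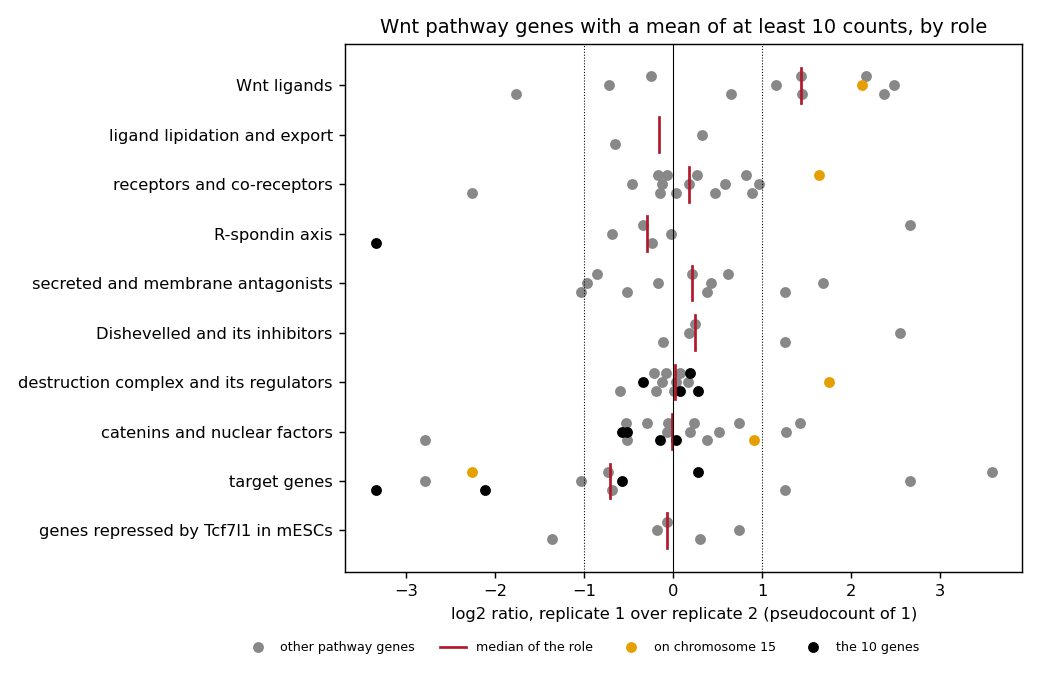
Log2 ratio of replicate 1 over replicate 2 (pseudocount of 1) for the pathway genes averaging 10 counts or more, 1 row for each role, with the 10 genes in black, other genes on chromosome 15 in orange and the median of each role as a red line. The median of the ligands lies at 1.44 and that of the target genes at -0.71, while the medians of the other roles lie between -0.29 and 0.24. A gene with several roles appears in each.

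Among the secreted antagonists, Notum was the most abundant in both libraries. Notum, a target gene whose product removes the lipid from Wnts, had 5658 counts in replicate 1 and 10637 in replicate 2, or 54.1 and 111 RPKM. Its log2 ratio of -1.03 was just beyond 2-fold, and scaling by total counts brought it to -0.92. Sfrp1, which encodes a soluble Wnt-binding protein, had 31.7 and 23.6 RPKM. Kremen1 (2536 against 975 counts, log2 ratio 1.26) and Sfrp2 (714 against 203 counts, 1.69) were more than 2-fold higher in replicate 1. With Notum they made 3 of 11 antagonists compared beyond 2-fold (27.3%), against 21.4% of all genes compared. Of the 11, 6 had a log2 ratio above 0 and 5 below it. Of the 5 genes for Dishevelled proteins and their inhibitors, the 3 Dvl genes lay between log2 ratios of -0.11 and 0.24. Dvl2, the most abundant of them, had 9.39 and 7.94 RPKM. Both inhibitors were low and higher in replicate 1, Nkd1 with 43 and 16 counts and Nkd2 with 43 and 6. These 2 of 5 genes beyond 2-fold (40%) stand beside 43.5% of all genes with a mean from 10 to under 30 counts, where both inhibitors fall.

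The target genes of the pathway did not move as 1 group. Of 15 target genes, 12 had enough counts, and 5 were more than 2-fold lower in replicate 1 while 3 were more than 2-fold higher. The background was 7.14% lower and 14.2% higher over all genes compared, and 17.8% lower and 25.7% higher among those with a mean from 10 to under 30 counts. Of the target genes, 7 averaged at least 100 counts, among them Lef1, Notum and Myc. In that range 14.0% of all genes lay beyond 2-fold in either direction, and 535 of 13005 were lower in replicate 1. Sp5 and Lgr5 passed the filter through replicate 2 alone and Cdx1 through replicate 1 alone, so that these 3 of the 8 had to differ. Sp5, Lgr5, Lef1, Notum and Myc were the lower ones, and Myc, a growth regulator on chromosome 15, had 128 counts in replicate 1 and 569 in replicate 2 (log2 ratio -2.27), against the direction of its chromosome. Cdx1, a homeobox gene, had 76 and 5 counts (3.58) and was higher in replicate 1 together with Rnf43 and Nkd1. Axin2 and Tcf7, the remaining targets among the 10 genes, lay within 2-fold and on opposite sides of 0. Ccnd1, the cyclin D1 gene, had 36.5 and 60.5 RPKM and a log2 ratio of -0.73. Dkk1, with 4 and 11 counts, and the Brachyury gene T, with 3 and 2, were too low to be compared, so that 2 of the 3 other target genes with a TCF match in their promoter window gave no ratio.

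**Figure D5:**
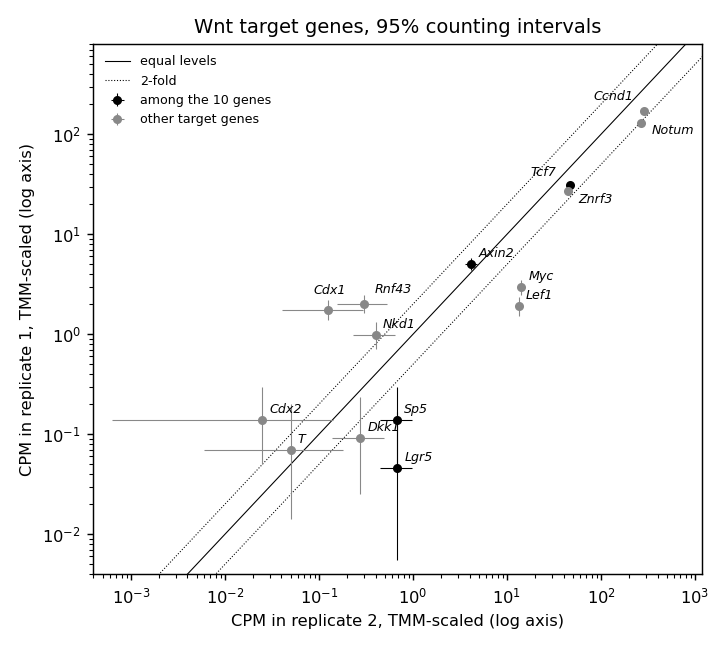
CPM of the 15 target genes in replicate 2 (horizontal) and replicate 1 (vertical) on log axes, with 95% exact binomial intervals that cover counting error only, the line of equal levels and dotted lines at 2-fold. Sp5 and Lgr5 share 0.677 CPM in replicate 2 and lie below the 2-fold line with Lef1 and Myc, while Rnf43, Cdx1 and Nkd1 lie above the upper one and Axin2 lies near the line of equal levels.

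Genes known to be repressed by TCF7L1 in mESCs were abundant in both libraries. Nanog, a core pluripotency gene, had 488 RPKM in replicate 1 and 293 RPKM in replicate 2, Klf2 had 231 and 187 RPKM, Esrrb had 89.7 and 93.8 RPKM, and Tfcp2l1 had 71.7 and 81.6 RPKM. The exception in size of difference was Nr0b1, which encodes the nuclear receptor DAX1, at 39.8 and 102 RPKM and a log2 ratio of -1.36. Of these 5 genes, 2 had a log2 ratio above 0 and 3 below it, but that of Esrrb moved from -0.065 to 0.053 with total counts. The 1 of 5 beyond 2-fold (20%) stands beside 14.0% of all genes of at least 100 counts. A relation of these ratios to that of Tcf7l1 was not tested.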

How the data were processed

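PolyA RNA of 2 Dicer_KO libraries was analysed as 1 group. The authors deposited counts per gene, whole numbers without normalization, made by trimming reads, aligning them to mm10 with STAR (2.4.2a, many multiple hits allowed) and counting on Ensembl genes with featureCounts (1.4.5-p1), reads on overlapping regions left out. The counting of multi-mapping reads, and whether strand was used, are not given in the sources used here. Symbols, positions and lengths came from GENCODE M21 (GRCm38), where 1081 of 43629 identifiers had no entry (0.152% and 0.168% of counts).

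Counts were scaled by TMM (edgeR 4.0.16, R 4.3.3), the factors being 1.04 and 0.96. Intervals are exact binomial at 95% (scipy 1.17.1) and cover counting error only. No test between libraries was possible with 1 library at each passage, so no p-value is given. Ratios used a minimum mean of 10 counts, a pseudocount of 1 and a threshold of 2-fold. The ratio step was tested on simulated data.

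The genes and lists were chosen with earlier results of these data known. Genes named were the 10 genes, Dicer1, the most abundant genes of each role and pathway genes beyond 2-fold. Others, such as Dkk1, T, Apc2, Fbxw11, Cby1, Ror2 and the ligands at 0, were named after their values were seen. Alternatives were total counts, DESeq2 size factors (1.42.0), raw counts, other pseudocounts, thresholds, minimums and lengths, TPM, and each library alone.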

Additional observations from a re-analysis of the deposited data

How the results depend on the processing

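No paired analysis was possible because there is only 1 group of samples. Ratios between the libraries could not be computed with a library left out, and for levels the value without a library is that of the other. Of the 10 genes, Sp5 and Lgr5 were beyond 2-fold under each other scaling, pseudocount and threshold tried, also at 4-fold, but with a mean of at least 50 counts both dropped out and 0 of the remaining 8 were beyond 2-fold. The median log2 ratio of the 10 genes, -0.24, was -0.12 with total counts or raw counts and -0.056 with a mean of at least 50 counts, since fewer genes were then included. Total counts moved the median of all genes from 0.02 to 0.14, so each ratio shifted upwards alike. Beyond 2-fold were 25 of the pathway genes, which became 41 at 1.5-fold, 12 at 4-fold and 16 of 72 with a mean of at least 50 counts. Among all genes the 3803 beyond 2-fold became 7045 at 1.5-fold, 1016 at 4-fold, 9002 of 43629 with no filter on low counts and 2324 of 14314 with a mean of at least 50 counts. With total counts, Notum came within 2-fold and Cby1 and Ror2 moved beyond it, to 1.02 and 1.08. Single log2 ratios stayed within their counting intervals in 38 of 50 alternatives, and the 12 others came from total or raw counts. Depth limits Sp5 and Lgr5 most, at 6 and 2 counts in replicate 1.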

Other observations

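A list of 13 genes of the planar cell polarity branch, which shares Frizzled and Dishevelled with the β-catenin branch, was added after the other values had been seen. Of these, 12 had enough counts, 1 was beyond 2-fold and 11 were within it, with a median log2 ratio of 0.17. All 12 averaged at least 100 counts, a range in which 14.0% of all genes were beyond 2-fold. The most abundant was Ptk7, a pseudokinase receptor, with 7536 counts in replicate 1 and 6996 in replicate 2, or 32.2 and 32.6 RPKM. Scrib, a scaffold gene on chromosome 15, had 30.9 and 17.9 RPKM, and Vangl1, encoding a core polarity membrane protein, had 17.4 and 22.8 RPKM. Prickle2 was the gene beyond 2-fold, with 1849 counts in replicate 1 and 698 in replicate 2 and a log2 ratio of 1.28. Celsr1, also on chromosome 15, had a log2 ratio of 0.57 and Prickle1, on the same chromosome, one of -0.42.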
